A study of Homo sapiens with 8 samples.

Results

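Solute carriers are the membrane proteins that move small molecules across the cell surface and the membranes of organelles. The genes described here carry ions, sugars, vitamins, nucleosides and other metabolites. They were chosen by symbol: every listed gene named SLC with a family number and an A, or SLCO, was kept, except the mitochondrial SLC25A family and 11 carriers of amino acids and iron. Of the 11818 genes in the deposited table, 141 met that rule, and all 141 could be tested. The rule is wider than ions and sugars. It also kept 22 carriers of amino acids, peptides, creatine and taurine, and 6 genes that bear a carrier's name without being a carrier: the scaffold genes SLC9A3R1 and SLC9A3R2, and SLC2A4RG, SLC4A1AP, SLC7A6OS and SLC22A18AS.

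Solute carriers work as uniporters, which let a solute run down its gradient, as cotransporters driven by sodium or protons, or as exchangers. Hepatocytes are known for many of them: sinusoidal organic anion carriers take up bile acids and drugs, glucose-6-phosphate translocase feeds glucose release, and zinc, manganese and thiamine carriers stock the liver with micronutrients. Hepatocellular carcinoma cells are known to rely on the facilitative glucose carrier GLUT1 and on lactate export.

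The study asked which mRNAs differ when circPTK2, a circular RNA with PTK2 as its host gene, is knocked down in HCCLM3, a human hepatocellular carcinoma line that is long established and metastasizes readily. Poly(A) RNA was sequenced with paired 150-base reads. The 4 siRNA libraries came from cells with the genotype label circPTK2 knock down, given an siRNA against circPTK2 by transient transfection, and the 4 NC libraries carry the genotype label WT. NC is not spelled out, and the labels do not say whether NC cells received a control siRNA. Every library comes from this 1 cell line, grown in the same serum-containing medium. Separate cultures are not stated, so the p-values rest on library-to-library spread, which may be technical.

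The deposited values are reads scaled by the authors to a library size, and column totals ran from 1002972 to 1020750 in the siRNA libraries and from 912904 to 1082965 in the NC libraries. The NC libraries stand apart in pairs, replicates 1 and 2 against replicates 3 and 4, and the fits without each pair are described after the classes. PTK2 mRNA averaged 213 ± 6.89 in siRNA and 185 ± 28.8 in NC libraries (SD, n = 4 each), a difference that did not pass the test (limma adjusted p = 0.167), and it does not measure the circular RNA. Of 17 hepatocyte markers 12 were listed. Of these, 3 were higher and 7 lower in the siRNA libraries, while 21.7% of all genes were higher and 20.8% lower. The 12 markers summed to 2708 to 2788 in the siRNA libraries, against 2996 to 5657 in the NC libraries. Those sums are mostly the keratins KRT8 and KRT18, and the other 10 markers summed to 121 to 143 in the siRNA libraries, against 129 to 180.0 in the NC libraries. ALB, SERPINA1 and HNF4A were the higher ones. FGB (41-fold), APOB (19.4-fold), FGG (13.3-fold), TF (3.48-fold), AMBP, KRT8 and AFP were the lower ones, and APOA1, APOA2, APOC3, TTR and AHSG are not in the table. Among markers of other cells, only LUM of 7 fibroblast genes, PECAM1 and KDR of 6 endothelial genes and CD68 of 7 leukocyte genes were listed. The receptor gene KDR had 122, 124, 110.5 and 95 in the siRNA libraries, against 26.7, 24, 28.5 and 16.6 in the NC libraries (limma adjusted p = 4.35e-05), all higher, and PECAM1 had 3.56, 3.25, 4.93 and 4.08 in the siRNA libraries, against 11.5, 7.53, 13 and 19.8 in the NC libraries (limma adjusted p = 0.00248), all lower, while LUM and CD68 did not pass. The part of these markers in the carrier changes was not tested. Fewer cells of a kind and less RNA per cell cannot be told apart in such bulk libraries.

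Of 7 genes that stayed under 1 in every library of 1 group, SLC14A1, SLCO1B3 and SLC26A9 had the highest means in the other group. The 250 bases before their RefSeq start (GRCh38.p14) show what lies at the promoters of the genes with the most one-sided values. All are written 5′ to 3′ on the gene's own strand, the plus strand for SLC14A1 (chr18:45723931-45724180) and SLCO1B3 (chr12:20810455-20810704) and the minus strand for SLC26A9 (chr1:205943457-205943706). Capitals mark every match to 1 of 11 short motifs, searched on both strands.
SLC14A1: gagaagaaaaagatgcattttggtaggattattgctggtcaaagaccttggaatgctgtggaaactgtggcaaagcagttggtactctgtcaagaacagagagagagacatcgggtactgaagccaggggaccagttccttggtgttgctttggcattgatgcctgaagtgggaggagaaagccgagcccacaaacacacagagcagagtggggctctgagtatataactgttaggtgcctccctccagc
SLCO1B3: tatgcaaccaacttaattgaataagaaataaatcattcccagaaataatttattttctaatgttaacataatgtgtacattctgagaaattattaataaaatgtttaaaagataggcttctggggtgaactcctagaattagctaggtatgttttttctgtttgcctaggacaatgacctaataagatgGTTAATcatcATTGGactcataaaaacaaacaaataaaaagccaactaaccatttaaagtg
SLC26A9: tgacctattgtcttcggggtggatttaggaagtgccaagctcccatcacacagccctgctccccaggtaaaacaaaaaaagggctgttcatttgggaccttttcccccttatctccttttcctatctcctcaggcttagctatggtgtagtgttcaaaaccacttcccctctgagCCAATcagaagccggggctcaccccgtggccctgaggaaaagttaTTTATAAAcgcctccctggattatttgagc
The SLC14A1 window held none of the 11 motifs. In SLCO1B3 the string GTTAAT, part of a HNF1 site, began 61 bases before the start and a CCAAT box on the other strand 51 bases before it. In SLC26A9 a CCAAT box began 75 bases before the start, and TATAAA matched on both strands in overlapping letters, 30 and 28 bases before it. Over all 27303 promoters of the RefSeq table, GTTAAT was found in 6.22%, CCAAT in 33.0% and TATAAA in 11.1%. The other strings searched were TGANTCA (AP-1), TGCGCNC and TGCACNC (metal response), TGACNNNGC (antioxidant response), ACGTG (hypoxia response), CAAAGTCCA (HNF4), GGGCGG (GC box) and TTGCATCA (amino acid response). All 3 windows were poor in CpG, with 2 in SLC14A1, 0 in SLCO1B3 and 4 in SLC26A9, against a median of 11 over all promoters. SLC14A1 has further annotated starts upstream, so its window covers 1 of several. A tally of these motifs over the members is void, because only 109 of the 141 members (77.3%) have a promoter in the table, under the 80% such a check needs.

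Of the 141 genes, 41 were higher and 23 lower in the siRNA libraries at an adjusted p under 0.05, and 77 did not pass (limma on log2(value + 1), adjusted over all 11812 genes tested). That is 45.4% of the members, against 42.5% of all genes tested, so their share is near the background. By direction, 29.1% of the members were higher, against 21.7% of all genes, and 16.3% were lower, against 20.8%. The median log2 change was 0.041 for the members and 0.012 for all genes tested, and the median absolute log2 change was 0.46 for the members and 0.40 for all genes. The groups did not overlap for 65 members (46.1%), against 43.3% of all genes. Among them 42 lay above NC, against 22.4% of all genes, and 23 below, against 20.9%. A log2 change of at least 1 went with a call for 26 members, against 12.2% of all genes. Of these, 15 were rises, against 6.35% of all genes, and 11 falls, against 5.88%. The 141 members together held 0.706% to 0.729% of the values of a siRNA library and 0.589% to 0.753% of those of an NC library. Low genes had been removed before deposit, and 7 members under 1 in every library of 1 group (SLC14A1, SLCO1B3, SLC22A4 and SLC31A2 in NC, and SLC26A9, SLC26A10 and SLC1A7 in siRNA) are in the table only through their other group, so that they differ is in part set by that filter.

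Beside the test on all 8 libraries, each library was left out in turn, and in a further fit the median deviation of the genes within the same 10 Mb of a chromosome was removed from every library. Of the 64 members that passed, 43 did so in every fit that left out 1 library, and calls that were lost are named with the gene. The 77 members that did not pass had log2 changes from -0.93 (SLC9A2) to 1.02 (SLC43A3). SLC30A7, SLC30A9, SLC37A3 and SLC38A9 had no overlap between the groups and did not pass, whereas SLC16A6, SLC22A3, SLC38A7 and SLC39A7 passed in spite of an overlap.

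**Figure D1:**
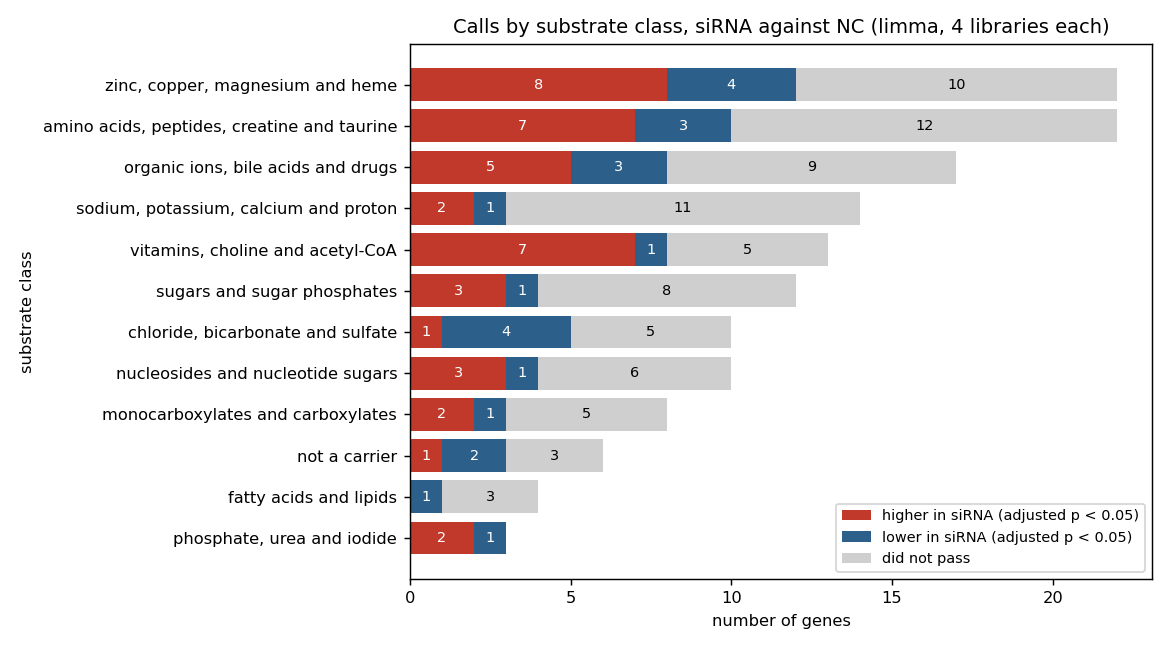
Number of genes (x axis) higher in siRNA, lower in siRNA or not past the limma threshold in each class of carried substrate (y axis), 4 siRNA against 4 NC libraries. Zinc, copper, magnesium and heme carriers had 8 rises and 4 falls among 22 genes (54.5% called). Vitamin, choline and acetyl-CoA carriers had 7 rises and 1 fall among 13 (61.5% called). Of all genes tested, 42.5% were called, 21.7% higher and 20.8% lower. With 10 Mb bin medians removed (not shown in the figure), these classes had 45.5% and 38.5% called, against 36.6% of all genes.

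The class of urea, phosphate and iodide carriers held 3 genes, and all 3 passed the test (100%, against 42.5% of all genes). They were SLC14A1, SLC20A1 and SLC20A2, so the class held no iodide carrier. SLC14A1 encodes UT-B, the urea transporter that carries the Kidd blood group. The gene (ENSG00000141469.17) is on chromosome 18, bases 45687025 to 45752520, plus strand (GRCh38, GENCODE v29). Its values, given here and below in the order of replicates 1 to 4, were 102, 101, 66.2 and 67.5 in the siRNA libraries, against 0.131, 0.753, 0.888 and 0.911 in the NC libraries. No NC library reached 1, every siRNA library was far above that, and within the siRNA group replicates 1 and 2 were the higher ones. SLC14A1 is in the table only through its siRNA libraries. That it differs, and so the class share of 100%, is in part set by the removal of low genes. The means were 84.2 ± 20.1 in siRNA and 0.671 ± 0.366 in NC libraries (SD, n = 4 each), a 126-fold difference (log2 change 5.67, SE 0.23, limma adjusted p = 1.46e-06). The sodium-phosphate cotransporters moved apart. SLC20A1, which encodes PiT1, had 179.9, 178, 169.7 and 154 in the siRNA libraries, against 133, 141, 106 and 101 in the NC libraries, with no overlap (log2 change 0.51, SE 0.13, limma adjusted p = 0.0109). SLC20A2, which encodes PiT2, had 28.6, 31.3, 33.8 and 31.8 in the siRNA libraries, against 35.5, 41.8, 46.4 and 51.9 in the NC libraries, also with no overlap but in the other direction. For SLC20A2 the log2 change was -0.46 (SE 0.13, limma adjusted p = 0.0191). The SLC20A2 call was lost when siRNA replicate 1 or 2 was left out (limma adjusted p 0.0505 to 0.0591) and with 10 Mb bin medians removed (limma adjusted p = 0.338). With the bin medians removed 2 of the 3 genes passed (66.7%, against 36.6% of all genes).

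Among 10 carriers of chloride, bicarbonate and sulfate, 1 rose and 4 fell (40% lower, against 20.8% of all genes). The 4 that fell are among the 6 listed members of the SLC26 anion family. Of these 4, SLC26A9 and SLC26A10 were under 1 in every siRNA library and are in the table only through their NC libraries. Their falls, and so the share of 40%, are in part set by the removal of low genes. SLC26A9, a chloride transporter known from stomach and airway epithelium, is on chromosome 1, bases 205913048 to 205943460, minus strand (ENSG00000174502.18). It had 0.321, 0.358, 0.832 and 0.542 in the siRNA libraries, against 12.6, 7.56, 24.8 and 37 in the NC libraries. No siRNA library reached 1, while the NC libraries ranged widely, with replicates 3 and 4 above replicates 1 and 2. The means were 0.513 ± 0.234 in siRNA and 20.5 ± 13.2 in NC libraries (SD, n = 4 each), 39.9-fold lower in siRNA (log2 change -3.61, SE 0.42, limma adjusted p = 0.000285). The log2 change was -4.38 (limma adjusted p = 7.14e-08) without NC replicates 1 and 2 and -2.84 (limma adjusted p = 7.53e-06) without NC replicates 3 and 4. SLC26A1, a sulfate and oxalate exchanger of liver and kidney, had 3.38, 2.44, 2.56 and 3.15 in the siRNA libraries, against 5.63, 5.84, 12.7 and 16 in the NC libraries. SLC26A1 had a log2 change of -1.39 (SE 0.31, limma adjusted p = 0.00742). Its groups did not overlap, but NC replicates 3 and 4 were far above NC replicates 1 and 2. SLC26A10 had 0.712, 0.618, 0.925 and 0.976 in the siRNA libraries, against 2.81, 3.04, 2.64 and 2.56 in the NC libraries, a narrow spread in both groups (log2 change -1.06, SE 0.13, limma adjusted p = 0.000392). SLC26A11, a sodium-independent sulfate transporter, had 13.1, 16.1, 15.6 and 18.4 in the siRNA libraries, against 30.2, 34, 21.9 and 22 in the NC libraries (log2 change -0.72, SE 0.17, limma adjusted p = 0.00989).

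The bicarbonate carriers of the SLC4 family did not share that direction. SLC4A7 encodes NBCn1, an electroneutral sodium-bicarbonate cotransporter that brings base into the cell, and it was the 1 of 4 SLC4 genes that passed. It had 254, 293, 267 and 240.4 in the siRNA libraries, against 90.6, 129.9, 84.5 and 61.5 in the NC libraries. The lowest siRNA library was well above the highest NC library, and the means differed 2.88-fold (log2 change 1.56, SE 0.20, limma adjusted p = 0.000465). SLC4A4, which encodes the electrogenic cotransporter NBCe1, had 5.41, 9.44, 10 and 8.24 in the siRNA libraries, against 2.97, 0.888, 6.33 and 8.0 in the NC libraries, with overlap, and did not pass (limma adjusted p = 0.126). SLC26A1, SLC26A10 and SLC26A11 each overlap another listed gene on the genome, and strand use in counting is not given, so some of their reads may belong to DGKQ, IDUA, B4GALNT1 or SGSH. Among the rest of the class, SLC4A2, SLC4A11, SLC26A2 and SLC26A6 did not pass, with log2 changes from -0.04 to 0.23. SLC4A2 and SLC26A6 differed from the NC pairs in opposite directions, with values given beside the split of the NC libraries.

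**Figure D2:**
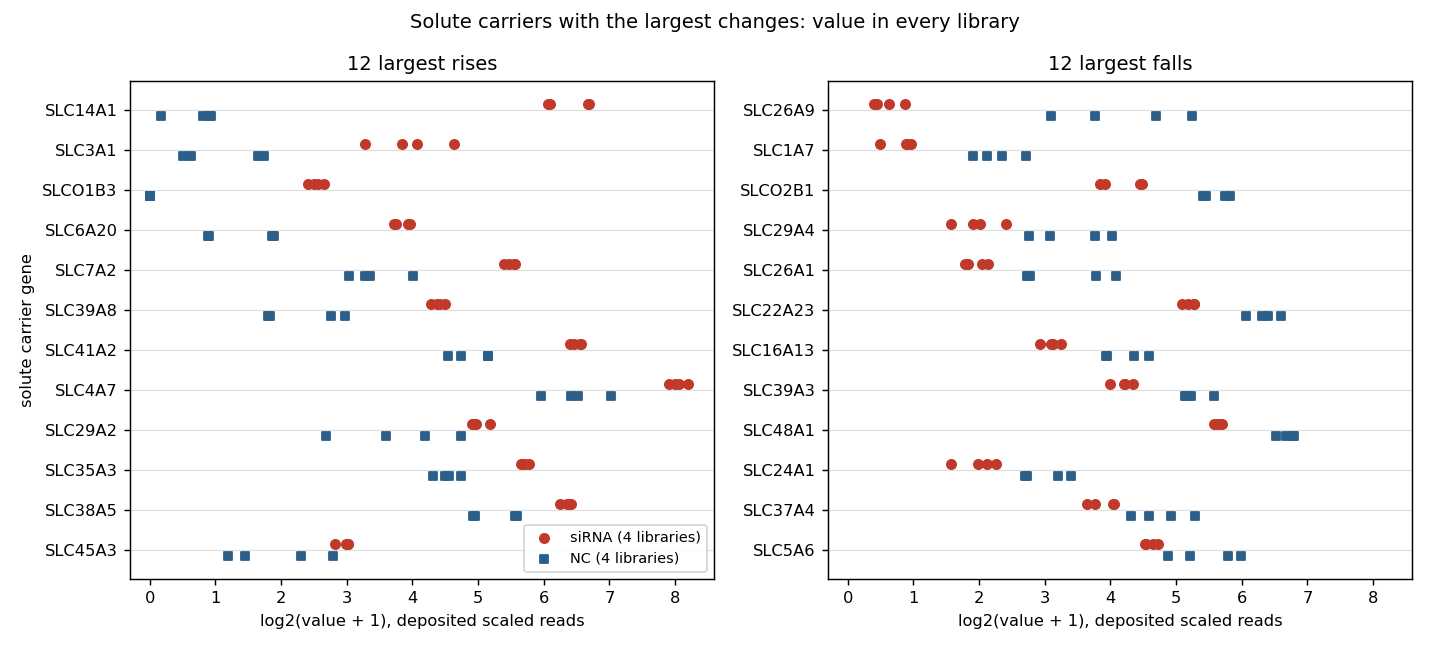
Value of each library on a log2(value + 1) scale (x axis) for the 12 largest rises (left) and the 12 largest falls (right) among called genes whose mean is at least 2 and whose groups do not overlap (y axis); circles are the 4 siRNA libraries and squares the 4 NC libraries. SLC14A1 was under 1 in every NC library and SLC26A9 under 1 in every siRNA library, and SLCO1B3 is listed at 0 in every NC library.

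Zinc, copper, magnesium and heme carriers made up 22 genes, of which 8 rose and 4 fell (54.5%, against 42.5% of all genes). The zinc importers of the SLC39 (ZIP) family held 11 of them, with 5 higher, 2 lower and 4 that did not pass. SLC39A8 encodes ZIP8, an importer of zinc and manganese, and had 19.8, 21.5, 20.5 and 18.4 in the siRNA libraries, against 2.58, 2.5, 6.89 and 5.81 in the NC libraries. The siRNA libraries kept within a narrow range, and NC replicates 1 and 2 were the lowest. Its means were 20.1 ± 1.29 in siRNA and 4.44 ± 2.24 in NC libraries (SD, n = 4 each), a 4.51-fold difference (log2 change 2.05, SE 0.27, limma adjusted p = 0.000593). SLC39A14, which encodes ZIP14, the hepatic carrier of zinc, manganese and non-transferrin iron, had 247, 255, 245 and 239 in the siRNA libraries, against 179, 195, 93.1 and 93.1 in the NC libraries. The SLC39A14 log2 change was 0.90 (SE 0.25, limma adjusted p = 0.0184). There the NC pairs were the other way round, replicates 1 and 2 being the higher ones, and all NC libraries were below the siRNA libraries. SLC39A4, the zinc importer ZIP4 known from the intestine, had 30.3, 31.2, 28.7 and 30.8 in the siRNA libraries, against 17.3, 17.8, 17.3 and 18.4 in the NC libraries. Both groups were tight, and the difference was 1.71-fold (log2 change 0.74, SE 0.09, limma adjusted p = 0.000336). SLC39A6 (ZIP6) stood at 172 ± 3.48 in siRNA and 130.3 ± 9.92 in NC libraries (log2 change 0.40, SE 0.08, limma adjusted p = 0.00483). It lost its call with 10 Mb bin medians removed (limma adjusted p = 0.324). SLC39A11 (ZIP11) stood at 21.2 ± 1.46 in siRNA and 14.6 ± 4.29 in NC libraries (limma adjusted p = 0.0495), just inside the threshold.

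The 2 ZIP genes that fell were SLC39A3 and SLC39A7. SLC39A3, the plasma membrane importer ZIP3, had 17.7, 14.9, 17.4 and 19.3 in the siRNA libraries, against 34.2, 34.6, 46.8 and 36.5 in the NC libraries. The groups were far apart, with NC replicate 3 the highest library (log2 change -1.08, SE 0.13, limma adjusted p = 0.000376). SLC39A7 encodes ZIP7, which releases zinc from the endoplasmic reticulum, and had 88.5, 84.2, 76.1 and 70 in the siRNA libraries, against 101, 87.2, 156 and 162 in the NC libraries, so that siRNA replicate 1 overlapped NC replicate 2. For SLC39A7 the log2 change was -0.62 (SE 0.21, limma adjusted p = 0.0383). SLC39A1, the importer ZIP1, had the highest level per length of all members, 94.8 per kilobase of exon in siRNA and 119 in NC libraries. Its values were 336, 316, 312 and 319.6 in the siRNA libraries, against 448, 403, 299.8 and 465 in the NC libraries, with overlap, and it did not pass (limma adjusted p = 0.0996). Of the 5 zinc exporters of the SLC30 (ZnT) family, SLC30A1, which encodes ZnT1 of the plasma membrane, passed: it stood at 57.3 ± 4.8 in siRNA and 69.4 ± 3.89 in NC libraries. SLC30A1 had a log2 change of -0.27 (SE 0.09, limma adjusted p = 0.0442). In fits that left out 1 library the call of SLC39A11 was lost when any of siRNA replicates 1 to 4 or NC replicate 1, 2 or 3 was left out (limma adjusted p 0.0677 to 0.122), that of SLC39A7 when any of siRNA replicates 1 to 4 or NC replicate 3 or 4 was left out (limma adjusted p 0.0617 to 0.0998) and that of SLC30A1 when siRNA replicate 1, 2 or 3 or NC replicate 1, 3 or 4 was left out (limma adjusted p 0.0747 to 0.132).

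Both magnesium carriers that passed rose. SLC41A2 had 86.8, 93.3, 94.2 and 83.2 in the siRNA libraries, against 34.4, 34.7, 22.4 and 25.7 in the NC libraries, a 3.05-fold difference with no overlap (log2 change 1.60, SE 0.15, limma adjusted p = 0.000101). SLC41A1, a magnesium exporter of the plasma membrane, had 63, 59, 53.2 and 53.7 in the siRNA libraries, against 27.5, 29.7, 51.5 and 44.4 in the NC libraries (log2 change 0.61, SE 0.20, limma adjusted p = 0.0345), and its call was lost when any of siRNA replicates 1 to 4 or NC replicate 1 or 2 was left out (limma adjusted p 0.0633 to 0.0918). The copper carriers are neighbours on chromosome 9. SLC31A2, the low-affinity CTR2, had 2.49, 2.57, 1.85 and 1.59 in the siRNA libraries, against 0.605, 0.70, 0.867 and 0.615 in the NC libraries, with no overlap (log2 change 0.87, SE 0.15, limma adjusted p = 0.00224). SLC31A2 is in the table only through its siRNA libraries, so its difference is in part set by the removal of low genes. SLC31A1, the high-affinity copper importer CTR1, had 98.8, 108, 103 and 120.5 in the siRNA libraries, against 176, 254, 75.4 and 58.2 in the NC libraries. The siRNA libraries lay between the NC pairs, and it did not pass (limma adjusted p = 0.81). SLC48A1, which encodes the heme carrier HRG1, fell: it had 51.2, 46.6, 48.8 and 49.1 in the siRNA libraries, against 91.2, 109.8, 109 and 101 in the NC libraries. Both groups were tight, and the 2.1-fold fall had the smallest adjusted p of the 23 falls (log2 change -1.05, SE 0.09, limma adjusted p = 6.95e-05). SLC48A1 overlaps HDAC7 and RAPGEF3 on the opposite strand. The remaining metal carriers, SLC30A5, SLC30A6, SLC30A7, SLC30A9, SLC39A9, SLC39A10, SLC39A13 and SLC41A3, did not pass, with log2 changes from -0.33 to 0.32.

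Of 12 carriers of sugars and sugar phosphates, 3 rose and 1 fell (33.3% called, against 42.5% of all genes). SLC2A1 encodes GLUT1, the basal glucose carrier of most cells, and had the highest mean of all members in the siRNA libraries, before length is taken into account. It had 421, 410.2, 412 and 485 in the siRNA libraries, against 365, 303, 128 and 142 in the NC libraries. The siRNA libraries were above all NC libraries, but NC replicates 1 and 2 were far above NC replicates 3 and 4 (log2 change 1.02, SE 0.32, limma adjusted p = 0.0321). SLC2A13, the proton myo-inositol cotransporter HMIT, had 21.8, 22.6, 25.6 and 24.4 in the siRNA libraries, against 13.2, 6.91, 12.8 and 20.5 in the NC libraries. The siRNA libraries lay close together while NC replicate 2 was the lowest (log2 change 0.86, SE 0.26, limma adjusted p = 0.0273). SLC45A3, a proton-linked sugar carrier also known as prostein, had 7.12, 7.09, 6.07 and 6.98 in the siRNA libraries, against 1.74, 1.29, 5.94 and 3.96 in the NC libraries, the closest libraries being siRNA replicate 3 and NC replicate 3. The SLC45A3 log2 change was 1.03 (SE 0.33, limma adjusted p = 0.033). SLC37A4 encodes the glucose-6-phosphate translocase of the endoplasmic reticulum and fell, with 12.6, 11.5, 15.5 and 15.6 in the siRNA libraries, against 23, 19, 29.2 and 38.1 in the NC libraries. For SLC37A4 the log2 change was -0.90 (SE 0.21, limma adjusted p = 0.00901). The SLC2A1 call was lost when any of siRNA replicates 1 to 4 or NC replicate 3 or 4 was left out (limma adjusted p 0.0647 to 0.0804), that of SLC2A13 when any of siRNA replicates 1 to 4 was left out (limma adjusted p 0.0556 to 0.0709) and that of SLC45A3 when any of siRNA replicates 1 to 4 or NC replicate 1 or 2 was left out (limma adjusted p 0.0547 to 0.0779). With 10 Mb bin medians removed those 3 rises did not pass either, with a limma adjusted p of 0.0716 for SLC2A1, 0.166 for SLC2A13 and 0.108 for SLC45A3. No call was made for SLC2A6, SLC2A8, SLC2A11, SLC5A3, SLC5A11, SLC37A1, SLC37A3 and SLC50A1, whose log2 changes ran from -0.43 to 0.32.

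The 8 carriers of monocarboxylates, all of the SLC16 (MCT) family, gave 2 rises and 1 fall (37.5% called, against 42.5% of all genes). SLC16A3 encodes MCT4, the lactate exporter of glycolytic cells, and had 143, 144, 129 and 139 in the siRNA libraries, against 47.1, 50.3, 111 and 94.7 in the NC libraries. Its siRNA libraries were all above the NC libraries, of which replicates 1 and 2 were the lower ones (log2 change 0.96, SE 0.27, limma adjusted p = 0.0189). SLC16A6, the carrier MCT7, known in zebrafish to export ketone bodies from hepatocytes, had 11.3, 10.5, 9.83 and 8.82 in the siRNA libraries, against 2.89, 3.52, 10.4 and 3.84 in the NC libraries, and NC replicate 3 lay inside the siRNA range. SLC16A6 had a log2 change of 0.99 (SE 0.31, limma adjusted p = 0.0317). SLC16A13, which encodes MCT11, fell with no overlap: it had 7.73, 6.64, 7.55 and 8.53 in the siRNA libraries, against 19.6, 23.1, 14.2 and 14.4 in the NC libraries. The SLC16A13 log2 change was -1.10 (SE 0.17, limma adjusted p = 0.00128). SLC16A4 (MCT5) had 32.5, 31.5, 45.4 and 49.5 in the siRNA libraries, against 50.7, 49.1, 10.9 and 15.6 in the NC libraries, and did not pass (limma adjusted p = 0.359), the NC pair means lying on both sides of the siRNA mean. The call of SLC16A3 was lost when siRNA replicate 1 or 2 was left out (limma adjusted p 0.0503 to 0.0505) and that of SLC16A6 when any of siRNA replicates 1 to 4 or NC replicate 1, 2 or 4 was left out (limma adjusted p 0.0558 to 0.0816). SLC16A1, SLC16A5 and SLC16A14 did not pass, with log2 changes from -0.55 to 0.48.

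With all 8 libraries, carriers of sodium, potassium, calcium and protons gave the fewest calls for their number, 2 rises and 1 fall among 14 (21.4%, against 42.5% of all genes). That low share depended on the NC libraries used. It was 42.9% without NC replicates 1 and 2, against 65.9% of all genes. Without NC replicates 3 and 4 it was 57.1%, against 57.8% of all genes. SLC12A7, which encodes the potassium-chloride cotransporter KCC4, had 276, 286, 292 and 339 in the siRNA libraries, against 264, 212, 183 and 236 in the NC libraries (log2 change 0.42, SE 0.13, limma adjusted p = 0.026). SLC9A8, the sodium-proton exchanger NHE8, had 58.2, 58.5, 55.3 and 52.7 in the siRNA libraries, against 42.8, 50.2, 34.7 and 33.5 in the NC libraries (log2 change 0.49, SE 0.14, limma adjusted p = 0.0195). Neither gene's groups overlapped, and the means differed 1.33-fold for SLC12A7 and 1.39-fold for SLC9A8. SLC24A1, the sodium-calcium-potassium exchanger NCKX1 known from rod photoreceptors, had 2.96, 1.98, 3.79 and 3.33 in the siRNA libraries, against 5.6, 5.52, 8.21 and 9.6 in the NC libraries, low values in both groups. For SLC24A1 the log2 change was -1.03 (SE 0.22, limma adjusted p = 0.00559). SLC9A2, the exchanger NHE2, had 32.7, 33.8, 31.2 and 39.9 in the siRNA libraries, against 39.4, 32.8, 92.9 and 157 in the NC libraries. Only NC replicates 3 and 4 stood clear of the siRNA libraries, and it did not pass (limma adjusted p = 0.123). The SLC12A7 call was lost when siRNA replicate 2, 3 or 4 or NC replicate 3 was left out (limma adjusted p 0.0516 to 0.0764) and that of SLC9A8 when siRNA replicate 1 or 2 was left out (limma adjusted p 0.0555 to 0.0571). SLC12A7 and SLC24A1 also lost theirs with 10 Mb bin medians removed (limma adjusted p = 0.0933 and 0.0667). Further ion exchangers and cotransporters that did not pass were SLC9A3, SLC9A5, SLC9A7, SLC12A2, SLC12A4, SLC12A8 and SLC12A9, at log2 changes from -0.63 to 0.40.

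Vitamin, choline and acetyl-CoA carriers had 7 rises and 1 fall among 13 genes, so that 53.8% were higher, against 21.7% of all genes. All 3 SLC19 genes were higher. SLC19A2, the thiamine carrier THTR1, had 52.5, 51.3, 48.9 and 43.6 in the siRNA libraries, against 20.1, 29.6, 28.4 and 25.6 in the NC libraries (log2 change 0.91, SE 0.14, limma adjusted p = 0.000971). SLC19A3, the thiamine carrier THTR2, stood at 12.4 ± 1.8 in siRNA and 7.02 ± 2.7 in NC libraries (SD, n = 4 each; log2 change 0.79, SE 0.25, limma adjusted p = 0.0295), and SLC19A1, the reduced folate carrier, at 57.7 ± 3.69 in siRNA and 35.9 ± 13.5 in NC libraries (log2 change 0.75, SE 0.24, limma adjusted p = 0.035). The SLC19A2 groups were far apart, whereas for SLC19A3 and SLC19A1 the lowest siRNA library was just above NC replicates 3 and 4. Both riboflavin carriers were higher as well. SLC52A2 had 232, 220.4, 189 and 212 in the siRNA libraries, against 117, 114, 158 and 153 in the NC libraries (log2 change 0.66, SE 0.13, limma adjusted p = 0.00434) and SLC52A3, at far lower values, 2.1, 2.67, 1.79 and 1.95 in the siRNA libraries, against 0.368, 0.834, 0.758 and 1.48 in the NC libraries (log2 change 0.77, SE 0.20, limma adjusted p = 0.0129). SLC23A2, the ascorbate carrier SVCT2, had 94.1, 92.5, 91.3 and 86 in the siRNA libraries, against 50.7, 64.4, 58.6 and 58.4 in the NC libraries, a narrow spread in both groups. SLC23A2 had a log2 change of 0.64 (SE 0.10, limma adjusted p = 0.000943). SLC44A2, a choline transporter-like protein, had 9.05, 9.5, 12.1 and 14.4 in the siRNA libraries, against 4.92, 4.79, 6.07 and 6.33 in the NC libraries (log2 change 0.90, SE 0.17, limma adjusted p = 0.00347). The fall was SLC5A6, the sodium-dependent carrier of biotin and pantothenate, with 22.3, 22, 24 and 25.3 in the siRNA libraries, against 36, 28.5, 54.1 and 62.5 in the NC libraries. The SLC5A6 log2 change was -0.86 (SE 0.23, limma adjusted p = 0.0156). The call of SLC19A3 was lost when siRNA replicate 1, 2 or 4 or NC replicate 1 or 2 was left out (limma adjusted p 0.0575 to 0.0795) and that of SLC19A1 when any of siRNA replicates 1 to 4 or NC replicate 1 or 2 was left out (limma adjusted p 0.0631 to 0.0867). With 10 Mb bin medians removed the class gave 3 rises and 2 falls (38.5% called, against 36.6% of all genes). By direction, 23.1% were then higher and 15.4% lower, against 18.3% of all genes each way, so the class was near the background. SLC19A1, SLC19A3, SLC23A2 and SLC52A3 did not pass there (limma adjusted p = 0.0515, 0.184, 0.443 and 0.404). Neither direction was called for SLC33A1, SLC44A1, SLC44A3, SLC44A4 and SLC44A5, which had log2 changes from -0.51 to 0.17.

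Nucleoside and nucleotide sugar carriers gave 3 rises and 1 fall among 10 (40% called, against 42.5% of all genes). SLC35A3, the Golgi carrier of UDP-N-acetylglucosamine, had 51.7, 49.9, 53.6 and 49.2 in the siRNA libraries, against 25.6, 22.5, 21.5 and 18.9 in the NC libraries. The groups were tight and well apart, 2.31-fold (log2 change 1.18, SE 0.11, limma adjusted p = 9.52e-05). The equilibrative nucleoside carriers rose with wider NC spread. SLC29A2 (ENT2) had 30.4, 29.1, 29.7 and 35.2 in the siRNA libraries, against 11.1, 5.46, 17.2 and 25.7 in the NC libraries (log2 change 1.20, SE 0.38, limma adjusted p = 0.0305), and SLC29A1 (ENT1) had 65.8, 67.7, 60.1 and 59.8 in the siRNA libraries, against 27.2, 22.9, 52.9 and 45.9 in the NC libraries (log2 change 0.83, SE 0.25, limma adjusted p = 0.0254). SLC29A4, the plasma membrane monoamine carrier of the same family, fell with 1.96, 2.77, 3.05 and 4.34 in the siRNA libraries, against 12.6, 5.76, 7.5 and 15.2 in the NC libraries. For SLC29A4 the log2 change was -1.43 (SE 0.30, limma adjusted p = 0.00544). The SLC29A2 call was lost when any of siRNA replicates 1 to 4 or NC replicate 1 was left out (limma adjusted p 0.0633 to 0.0761) and that of SLC29A1 when any of siRNA replicates 1 to 4 or NC replicate 1 was left out (limma adjusted p 0.0519 to 0.0662). The other nucleoside and nucleotide sugar carriers, SLC28A2, SLC29A3, SLC35A1, SLC35A2, SLC35A4 and SLC35A5, did not pass and had log2 changes from -0.33 to 0.12.

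Carriers of organic ions, bile acids and drugs numbered 17, with 5 rises and 3 falls (47.1% called, against 42.5% of all genes). SLCO1B3 encodes OATP1B3, a sinusoidal uptake carrier of bile acids and drugs that is known as a marker of mature hepatocytes. The gene (ENSG00000111700.12) is on chromosome 12, bases 20810702 to 20916911, plus strand. It had 4.67, 5.27, 4.9 and 4.3 in the siRNA libraries and is listed at 0 in all 4 NC libraries, so no fold is given (limma adjusted p = 4.52e-06). SLCO1B3 is in the table only through its siRNA libraries, so that it differs is in part set by the removal of low genes. Of the 12 listed hepatocyte markers 3 were higher and 7 lower, while 21.7% of all genes were higher and 20.8% lower. The part of these markers in the SLCO1B3 difference was not tested. SLCO2B1, a broad organic anion carrier of liver and intestine, went the other way, with 13.4, 14.1, 20.8 and 21.4 in the siRNA libraries, against 42.9, 41.6, 52.6 and 55.8 in the NC libraries. The groups were clear of each other, siRNA replicates 1 and 2 being the lowest, and the fall was 2.77-fold (log2 change -1.44, SE 0.18, limma adjusted p = 0.000449). The other SLCO genes also split: SLCO4A1 stood at 28.6 ± 2.76 in siRNA and 21.5 ± 3.42 in NC libraries (SD, n = 4 each; log2 change 0.40, SE 0.14, limma adjusted p = 0.0407) and SLCO3A1 at 30 ± 2.8 in siRNA and 42.1 ± 3.71 in NC libraries (log2 change -0.48, SE 0.11, limma adjusted p = 0.00804). SLCO4A1 lost its call when any of siRNA replicates 1 to 4 or NC replicate 1 or 4 was left out (limma adjusted p 0.0613 to 0.11) and with 10 Mb bin medians removed (limma adjusted p = 0.0659), and with the bin medians removed SLCO3A1 had a log2 change of 0.31 (limma adjusted p = 0.0695).

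In the SLC22 family, SLC22A4 and SLC22A5, neighbours on chromosome 5, were both higher. SLC22A5, the carnitine carrier OCTN2, had 10.7, 13.5, 13.4 and 12.1 in the siRNA libraries, against 4.97, 5.25, 6.33 and 6.23 in the NC libraries (log2 change 1.00, SE 0.13, limma adjusted p = 0.000557). SLC22A4, the ergothioneine carrier OCTN1, had 2.78, 2.99, 2.19 and 2.6 in the siRNA libraries, against 0.394, 0.188, 0.672 and 0.738 in the NC libraries, low values in siRNA and under 1 in every NC library. SLC22A4 had a log2 change of 1.29 (SE 0.17, limma adjusted p = 0.00045). It is in the table only through its siRNA libraries, so its difference is in part set by the removal of low genes. SLC22A3, the organic cation carrier OCT3, had 43.8, 45.8, 46.3 and 44.2 in the siRNA libraries, against 31.4, 44.2, 34.9 and 30 in the NC libraries, where NC replicate 2 reached the siRNA range (log2 change 0.37, SE 0.13, limma adjusted p = 0.0454), and the call was lost when any of siRNA replicates 1 to 4 or NC replicate 1, 3 or 4 was left out (limma adjusted p 0.0733 to 0.107). SLC22A23, with no settled substrate, fell: it had 37.6, 35.2, 37.5 and 33 in the siRNA libraries, against 83.4, 96.3, 78.3 and 66.2 in the NC libraries (log2 change -1.14, SE 0.12, limma adjusted p = 0.00019). Organic ion carriers that did not pass were SLC10A3, SLC10A5, SLC10A7, SLC17A5, SLC17A9, SLC22A11, SLC22A15, SLC22A18 and SLC47A1, with log2 changes from -0.62 to 0.42. Among the 4 listed fatty acid carriers of the SLC27 family, SLC27A4, which encodes FATP4, passed with 52.4, 56.5, 52 and 54.3 in the siRNA libraries, against 67.9, 81.4, 68.5 and 66.1 in the NC libraries. The SLC27A4 log2 change was -0.39 (SE 0.10, limma adjusted p = 0.0107). SLC27A1, SLC27A3 and SLC27A5 of the same family did not pass, with log2 changes from -0.59 to 0.17.

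The amino acid, peptide, creatine and taurine carriers that the rule kept gave 7 rises and 3 falls among 22 (45.5% called, against 42.5% of all genes). SLC3A1 encodes rBAT, the heavy subunit of the cystine and dibasic amino acid carrier, and had 8.73, 13.3, 15.8 and 23.9 in the siRNA libraries, against 0.421, 0.538, 2.15 and 2.34 in the NC libraries. The siRNA libraries were spread widely, replicate 1 being the lowest and replicate 4 the highest, and were still clear of NC, and the difference was 11.3-fold (log2 change 2.83, SE 0.37, limma adjusted p = 0.000539). SLC6A20, the proline and imino acid carrier, had 12.5, 14.3, 12.2 and 14.5 in the siRNA libraries, against 2.63, 2.72, 0.845 and 0.862 in the NC libraries, a 7.58-fold difference. For SLC6A20 the log2 change was 2.46 (SE 0.26, limma adjusted p = 0.000191). SLC7A2, the arginine carrier CAT2, had 41.2, 43.2, 45.9 and 46.5 in the siRNA libraries, against 8.68, 7.16, 9.23 and 15.1 in the NC libraries, a 4.4-fold difference (log2 change 2.08, SE 0.20, limma adjusted p = 0.000105). SLC38A5, a glutamine carrier (SNAT5), had 84.8, 81.3, 74.9 and 83 in the siRNA libraries, against 29.2, 30.1, 47.3 and 46.1 in the NC libraries (log2 change 1.10, SE 0.17, limma adjusted p = 0.00128). In these 4 genes every siRNA library exceeded every NC library with room between them. SLC6A8, the creatine carrier, is among the 3 genes with the highest values, at 386, 369, 396 and 409 in the siRNA libraries, against 343, 237, 201 and 324 in the NC libraries. SLC6A8 had a log2 change of 0.53 (SE 0.17, limma adjusted p = 0.032). The other rises were SLC43A1, which encodes the branched-chain amino acid carrier LAT3, at 43.7 ± 4.26 in siRNA and 25.6 ± 8.3 in NC libraries (log2 change 0.80, SE 0.21, limma adjusted p = 0.014), and SLC36A4 at 41.1 ± 3.49 in siRNA and 30.7 ± 2.29 in NC libraries (log2 change 0.41, SE 0.10, limma adjusted p = 0.0118).

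The 3 falls of that class were SLC1A7, SLC38A10 and SLC38A7. SLC1A7, the glutamate carrier EAAT5 known from the retina, had 0.855, 0.944, 0.401 and 0.868 in the siRNA libraries, against 2.76, 5.54, 4.07 and 3.35 in the NC libraries, under 1 in every siRNA library. The SLC1A7 log2 change was -1.46 (SE 0.20, limma adjusted p = 0.000661). SLC1A7 is in the table only through its NC libraries, so its difference is in part set by the removal of low genes. SLC38A10 had 72.9, 76.4, 79.1 and 83.8 in the siRNA libraries, against 124, 109.9, 142 and 158 in the NC libraries, with no overlap (log2 change -0.76, SE 0.12, limma adjusted p = 0.00141). SLC38A7, the lysosomal glutamine carrier SNAT7, had 32.7, 30.2, 35 and 40.8 in the siRNA libraries, against 76.9, 57.8, 38.9 and 68.3 in the NC libraries, with NC replicate 3 inside the siRNA range. For SLC38A7 the log2 change was -0.75 (SE 0.20, limma adjusted p = 0.017). SLC6A8 lost its call when any of siRNA replicates 1 to 4 or NC replicate 2 or 3 was left out (limma adjusted p 0.0535 to 0.0796) and SLC38A7 when siRNA replicate 2 was left out (limma adjusted p 0.0529). SLC38A7 and SLC43A1 did not pass with 10 Mb bin medians removed (limma adjusted p = 0.193 and 0.09). Of the remaining carriers in this class, SLC6A6, SLC6A16, SLC7A7, SLC15A1, SLC15A2, SLC15A4, SLC36A1, SLC38A6, SLC38A9 and SLC43A2 did not pass, and their log2 changes ran from -0.57 to 0.58. Of the 6 genes that are no carriers, the scaffold genes that anchor the exchanger NHE3 split: SLC9A3R2 was higher at 180.0 ± 16.8 in siRNA and 129 ± 13 in NC libraries (log2 change 0.48, SE 0.11, limma adjusted p = 0.00708) and SLC9A3R1 lower at 140.2 ± 5.48 in siRNA and 219 ± 50.9 in NC libraries (log2 change -0.61, SE 0.16, limma adjusted p = 0.0133). SLC22A18AS, antisense to SLC22A18, was lower at 5.47 ± 0.454 in siRNA and 10.4 ± 3.63 in NC libraries (log2 change -0.77, SE 0.22, limma adjusted p = 0.0224). It overlaps SLC22A18 in part, so some of its reads may belong to SLC22A18, and the call was lost when siRNA replicate 2, 3 or 4 or NC replicate 4 was left out (limma adjusted p 0.0525 to 0.0578). The rest, SLC2A4RG, SLC4A1AP and SLC7A6OS, did not pass, with log2 changes from -0.12 to 0.06.

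**Figure D3:**
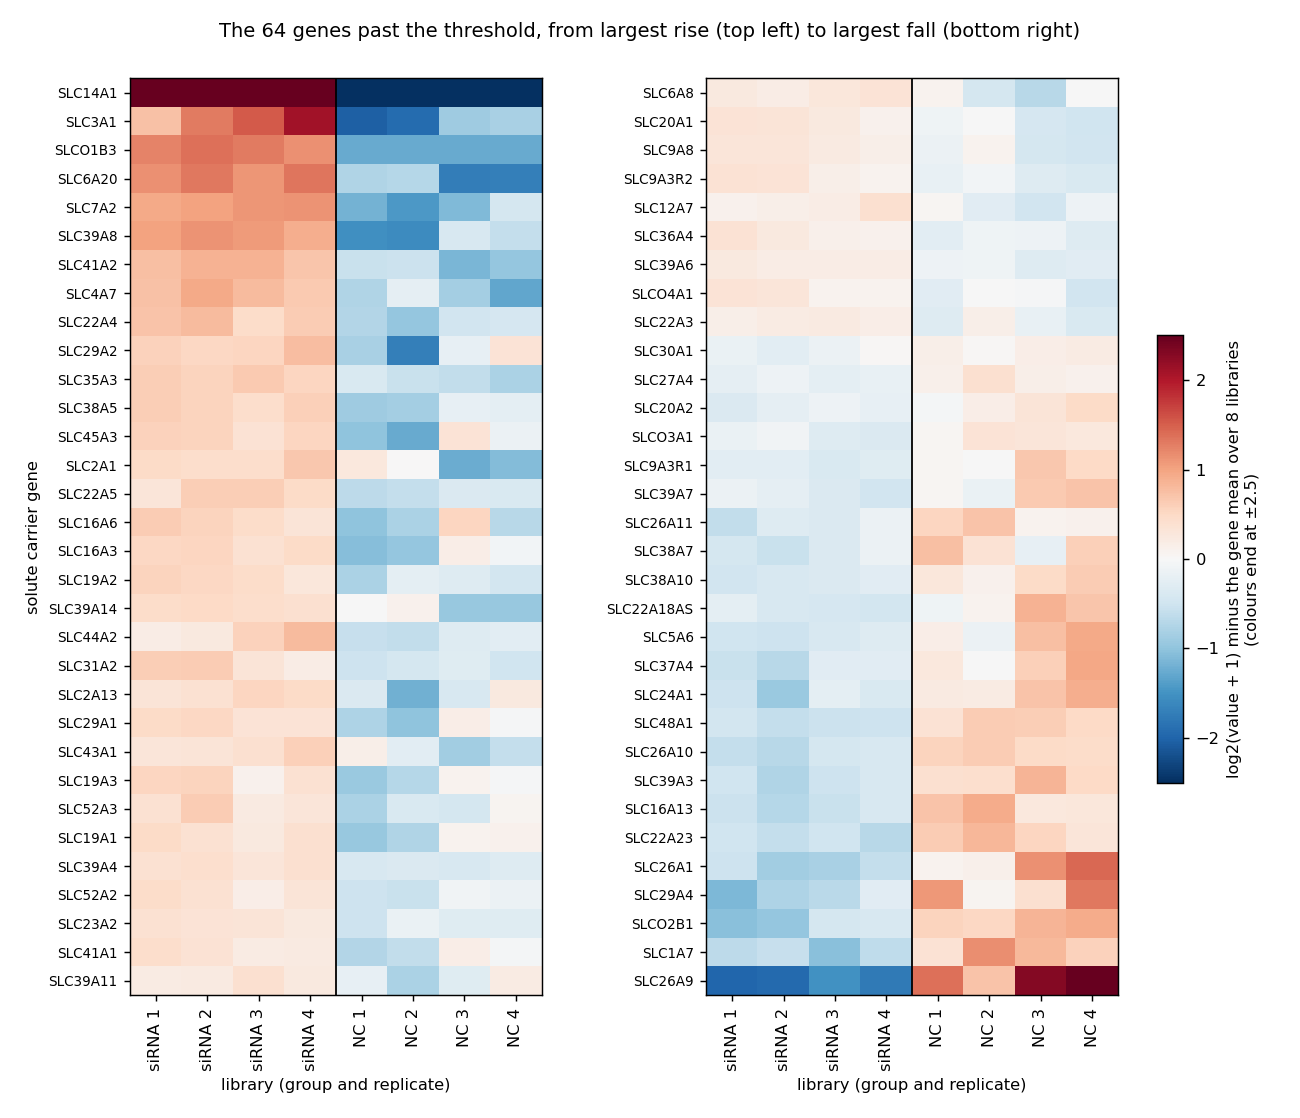
Log2(value + 1) of each of the 64 genes past the threshold minus its mean over the 8 libraries (colour), in siRNA replicates 1 to 4 and NC replicates 1 to 4 (x axis), with genes in the order of their change (y axis). SLC14A1 and SLC26A9 are at the ends, and for SLC2A1, SLC39A14 or SLC16A3 the NC replicates 1 and 2 differ visibly from replicates 3 and 4.

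The split of the NC libraries bore on many of these genes. The median absolute log2 difference between the means of NC replicates 1 and 2 and of NC replicates 3 and 4 was 0.53 over the members and 0.38 over all genes, and it was over 1 for 22 members. Of the 77 members that did not pass, 38 had the siRNA mean between the NC pair means. Without NC replicates 1 and 2, 48 members were higher and 44 lower, while 65.9% of all genes were called, 33.5% higher and 32.4% lower. Without NC replicates 3 and 4, 57 were higher and 33 lower, while 57.8% of all genes were called, 29.7% higher and 28.1% lower. Of the 64 members called with all libraries, 55 passed in both of those fits. The calls of SLC16A6, SLC19A3, SLC39A11, SLC41A1 and SLC45A3 were lost without NC replicates 1 and 2 (limma adjusted p = 0.119, 0.0573, 0.0742, 0.0503 and 0.0552). Those of SLC22A3, SLC22A18AS, SLC30A1 and SLC39A7 were lost without NC replicates 3 and 4 (limma adjusted p = 0.0925, 0.0574, 0.0752 and 0.0824). Every one of the 64 had the same sign in both, but for 8 of them the log2 change differed by over 1 between the fits. SLC2A1 had 1.67 (limma adjusted p = 1.05e-07) without NC replicates 1 and 2 and 0.37 (limma adjusted p = 0.00874) without NC replicates 3 and 4. SLC16A3 had 0.43 (limma adjusted p = 0.00128) without the first pair and 1.49 (limma adjusted p = 7.15e-07) without the second, and SLC29A2 0.54 (limma adjusted p = 0.00883) and 1.85 (limma adjusted p = 0.000131). The others were SLC26A9, given above, SLC26A1 with -1.98 (limma adjusted p = 3.32e-06) and -0.80 (limma adjusted p = 0.00284), SLC39A8 with 1.52 (limma adjusted p = 2.21e-06) and 2.57 (limma adjusted p = 5.42e-07), SLC3A1 with 2.26 (limma adjusted p = 0.000374) and 3.39 (limma adjusted p = 3.75e-05), and SLC45A3 with 0.41 (limma adjusted p = 0.0552) and 1.64 (limma adjusted p = 2.34e-05). SLC39A14 had 1.40 (limma adjusted p = 6.77e-08) and 0.40 (limma adjusted p = 0.00103), and SLC29A1 0.35 (limma adjusted p = 0.0072) and 1.31 (limma adjusted p = 5.34e-06).

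Among the members that did not pass, 7 passed in both fits in opposite directions: SLC6A9, SLC31A1, SLC4A2, SLC26A6, SLC43A2, SLC10A3 and SLC22A15. SLC6A9, the glycine carrier GlyT1, turned with the choice of NC pair. It had 20.1, 21.3, 19.7 and 26.4 in the siRNA libraries, against 69.6, 72.5, 5.85 and 7.16 in the NC libraries. The siRNA libraries were far below NC replicates 1 and 2 and far above NC replicates 3 and 4, and with all libraries the log2 change was -0.03 (limma adjusted p = 0.98). It was 1.60 (limma adjusted p = 4.67e-06) without NC replicates 1 and 2 and -1.66 (limma adjusted p = 4.51e-06) without NC replicates 3 and 4. SLC31A1 turned in the same way, with 0.69 (limma adjusted p = 0.000365) without NC replicates 1 and 2 and -0.97 (limma adjusted p = 0.000362) without NC replicates 3 and 4. SLC26A6, an anion exchanger, had -0.62 (limma adjusted p = 0.00118) without the first pair and 0.74 (limma adjusted p = 0.00123) without the second. SLC4A2, the chloride-bicarbonate exchanger AE2, had -0.47 (limma adjusted p = 0.000331) and 0.39 (limma adjusted p = 0.0035), and SLC43A2, the amino acid carrier LAT4, -0.59 (limma adjusted p = 7.94e-05) and 0.58 (limma adjusted p = 0.000517). In the other direction, SLC10A3 had 0.31 (limma adjusted p = 0.0135) and -0.33 (limma adjusted p = 0.00804), and SLC22A15 0.78 (limma adjusted p = 0.00284) and -0.57 (limma adjusted p = 0.0183). SLC43A3, a carrier of purine nucleobases that was counted here with the amino acid carriers of its family, had 6.91, 6.51, 4.75 and 5.89 in the siRNA libraries, against 0.50, 0.834, 7.76 and 4.73 in the NC libraries. Its log2 change was -0.02 (limma adjusted p = 0.927) without NC replicates 1 and 2 and 2.07 (limma adjusted p = 1.48e-05) without NC replicates 3 and 4. For SLC4A4 it was 0.16 (limma adjusted p = 0.532) without the first pair and 1.73 (limma adjusted p = 0.00157) without the second, for SLC16A4 1.5 (limma adjusted p = 0.0003) and -0.35 (limma adjusted p = 0.135), and for SLC9A2 -1.79 (limma adjusted p = 8.12e-05) and -0.07 (limma adjusted p = 0.663). SLC14A1 had 5.46 (limma adjusted p = 3.98e-08) without the first pair and 5.89 (limma adjusted p = 9.97e-07) without the second. It was under 1 in every NC library, and 1 is added before the log. Leaving out either NC pair could therefore change its value little, and these fits are no check on it.

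**Figure D4:**
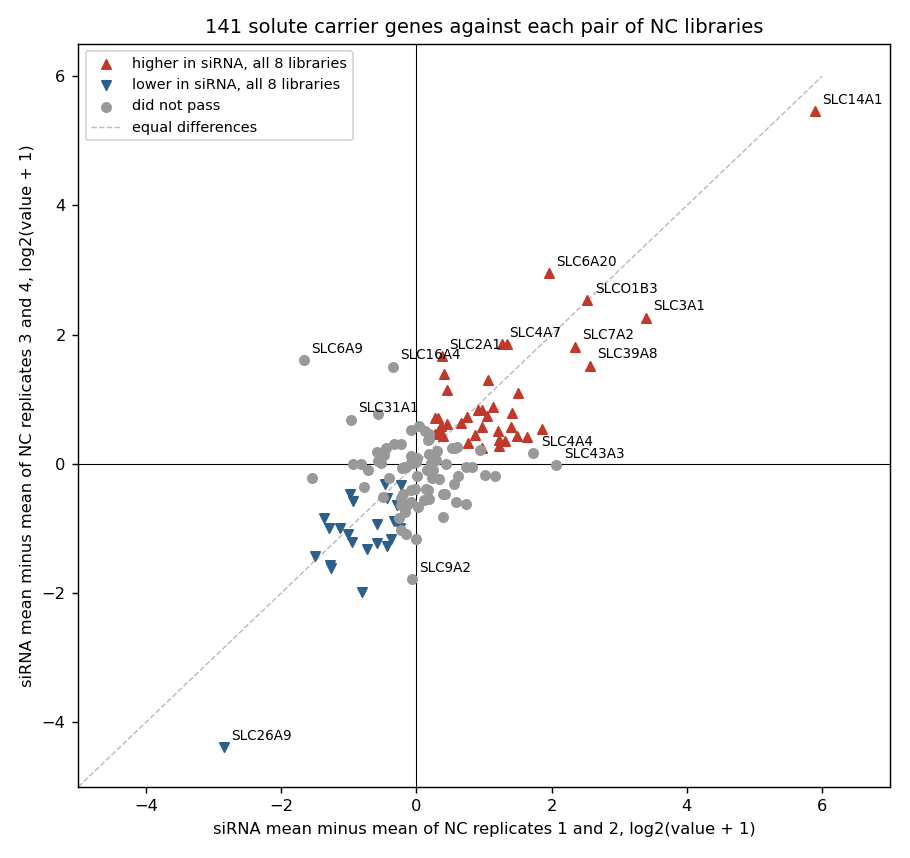
Difference of log2(value + 1) means, siRNA minus NC replicates 1 and 2 (x axis) and siRNA minus NC replicates 3 and 4 (y axis), for each of the 141 genes; triangles mark genes past the threshold with all 8 libraries. SLC14A1 is far up on both axes and SLC26A9 far down, while SLC6A9 and SLC31A1 fall in the quadrant where the signs differ.

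A set of 38 symbols of partners and regulators of these carriers was counted, of which 26 were listed, 8 higher and 7 lower, while 21.7% of all genes were higher and 20.8% lower. The set holds SLC9A3R1 also under its newer symbol NHERF1. SLC9A3R1, among the 7 lower ones, is itself a member. OXSR1, the kinase that phosphorylates the SLC12 cotransporters, had 144, 153, 164 and 161 in the siRNA libraries, against 65.7, 64.8, 44.3 and 51 in the NC libraries (log2 change 1.46, SE 0.14, limma adjusted p = 0.0001), and WNK1, the kinase upstream of it, had 309, 361, 345 and 361 in the siRNA libraries, against 543, 551, 625 and 550.4 in the NC libraries (log2 change -0.72, SE 0.09, limma adjusted p = 0.000401). The kinases went in different directions, while 5 of 6 SLC12 genes did not pass. BSG encodes basigin, the chaperone of the lactate carriers MCT1 and MCT4, and had 514, 512, 482 and 487 in the siRNA libraries, against 751, 814, 762 and 695 in the NC libraries, lower in siRNA (log2 change -0.60, SE 0.08, limma adjusted p = 0.00064) where SLC16A3 was higher. CA2, a cytosolic carbonic anhydrase that supplies bicarbonate, had 6.23, 5.66, 6.94 and 5.86 in the siRNA libraries, against 15.8, 16.2, 15.7 and 10.5 in the NC libraries (log2 change -1.10, SE 0.16, limma adjusted p = 0.000825). HNF4A, a hepatocyte transcription factor, had 47.6, 58.7, 58.3 and 61.5 in the siRNA libraries, against 33.5, 31.2, 26.5 and 34.3 in the NC libraries (log2 change 0.83, SE 0.12, limma adjusted p = 0.000901). NR1H4 encodes the bile acid receptor FXR and had 3.92, 3.74, 3.45 and 3.18 in the siRNA libraries, against 0.21, 0, 0.325 and 1.06 in the NC libraries; it is listed at 0 in NC replicate 2, so no fold is given (limma adjusted p = 0.000398).

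Position on the genome went with some of the changes. Over all genes, chromosome 3 had 268 higher and 54 lower of 673 tested, with a median log2 change of 0.31, and it holds SLC4A7 and SLC6A20. With 10 Mb bin medians removed SLC4A7 had a log2 change of 0.89 (limma adjusted p = 0.00286) and SLC6A20 of 1.96 (limma adjusted p = 0.00139), smaller than without that step and still past the threshold. Chromosome 15 had 20 higher and 196 lower of 393 tested, with a median log2 change of -0.47. Both of its members that passed, SLC24A1 and SLCO3A1, fell, and neither passed with the bin medians removed. SLC45A3 (chromosome 1, bases 205657851 to 205680459, minus strand) and SLC41A1 (chromosome 1, bases 205789093 to 205813748, minus strand) lie close to SLC26A9, and both were higher while SLC26A9 was lower. With the bin medians removed SLC26A9 had a log2 change of -3.81 (limma adjusted p = 0.000477), and over all members 31 were higher and 24 lower, while 36.6% of all genes were called, 18.3% in each direction. SLC22A3, SLC39A7 and SLC41A1 were also among the members whose call was lost there (limma adjusted p = 0.23, 0.597 and 0.188). Of the members, 37 overlap another listed gene on the opposite strand and 4 one on the same strand, which limits how far their values can be assigned to them. Called members with an opposite-strand overlap not named above include SLC3A1 (PREPL), SLC22A4 (P4HA2), SLC31A2 (FKBP15), SLC29A4 (TNRC18) and SLC24A1 (DENND4A). SLC16A3, SLC16A6, SLC19A1, SLC20A2, SLC22A23, SLC37A4, SLC39A7, SLC52A2 and SLC5A6 are the others.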

How the data were processed

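The table covers 11818 gene symbols in 8 libraries. Its values are a scaled read signal: the file headers name the columns counts, but the authors deposited values that are not whole; each is a whole multiple of 1 step per column within 0.02 steps. In 4 columns the smallest value was 2 steps, so reads were not recovered, depth is taken as unknown and no count test was run. The submitters' processing notes name HISAT2, HTSeq 0.12.4, the build hg38, Trimmomatic, FastQC, edgeR and DESeq2, without settings, and strand use in counting is not stated in them. The lowest gene mean was 0.725 and every gene was above 1 in at least 3 libraries.

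From these values, limma 3.58.1 (R 4.3.3, trend and robust) was run on log2(value + 1) for the 11812 genes with at least 1 in at least 4 libraries, with a single term for group and Benjamini-Hochberg adjustment over all of them; the log2 scale understates the change of low genes. Folds are ratios of group means. The procedure was tested on simulated data. Those data had no split between NC pairs, so that test does not cover this feature of the libraries.

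The members and lists were chosen with earlier results of these data known. Named genes were SLC14A1 and SLC26A9, the 12 largest rises and falls with a mean of at least 2 and no overlap, up to 3 members per class with the smallest p, the 3 highest members, the 6 members not past the threshold with the NC pairs furthest apart and 6 partners; other members and the marker genes were named after their values were seen, as were the 3 promoters. A few members that did not pass are counted but not reported here by name. SLC4A1AP was moved to the genes that are no carriers after the table was seen. Positions, overlaps and exon lengths were taken by symbol from GENCODE v29 (GRCh38) for 11806 genes. Replicate numbers recur in both groups with no shared day or culture stated. Alternatives were equal library totals, median-of-ratios size factors, pseudocounts of 0.1 and 5, no filter, a mean of at least 5, adjusted p under 0.01, a replicate block, leaving out each library or each NC pair, and removing 10 Mb bin medians. The filter was set on all 8 libraries in every fit that left libraries out.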

Additional observations from a re-analysis of the deposited data

Results flagged for a closer look

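In 154 groups of 4 libraries examined (77 genes, siRNA and NC), 8 had a library set far from the other 3, and chance gives about 1 in 20. SLC2A1 had 484.7 in siRNA replicate 4, above 410.2 to 421 in the other siRNA libraries. SLC39A6 had 178 in siRNA replicate 1, above 170.1 to 171 in the others. SLC45A3 had 6.07 in siRNA replicate 3, below 6.98 to 7.12, and SLC1A7 had 0.401 in siRNA replicate 3, below 0.855 to 0.944. SLC16A6 had 10.4 in NC replicate 3, above 2.89 to 3.84 in the other NC libraries, and SLC27A4 had 81.4 in NC replicate 2, above 66.1 to 68.5. WNK1 had 625 in NC replicate 3, above 543 to 551, and CA2 had 10.5 in NC replicate 4, below 15.7 to 16.2. The cause of these values was not tested.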

How the results depend on the processing

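Of the 64 members past the threshold, 43 passed in every fit that left out 1 library and 46 with 10 Mb bin medians removed. Of 70 called genes named in the text, partners included, 36 kept direction and call under all 19 alternatives run. At an adjusted p under 0.01 the counts were 20 higher, 15 lower and 3034 over all genes, by construction of the threshold. Leaving out 1 library gave 25 to 39 higher members, 18 to 30 lower members and 3853 to 5535 genes called; the higher count was 25 without siRNA replicate 2 and 27 without siRNA replicate 1 or 4, and 26 of the 41 higher members passed without siRNA replicate 1. Without NC replicates 1 and 2 there were 44 lower members and 7782 genes called. Among the genes of the naming rule and the called members, the log2 change turned without NC replicates 1 and 2 in SLC31A1 (0.69), SLC6A9 (1.60) and SLC43A3 (-0.024), without NC replicates 3 and 4 in SLC16A4 (-0.35), and with bin medians removed in SLCO3A1 (0.31) and SLC39A1 (0.32), neither of which passed there. Near 0 with all libraries, SLC6A9 was also 0.013 with a pseudocount of 0.1, and leaving out 1 library gave -0.62 to 0.52 for SLC6A9 and -0.48 to 0.22 for SLC31A1, none past the threshold. The cause was not tested. No paired design was shown: deviations of same-numbered libraries correlated at -0.068, 0.146, -0.066 and 0.161, and a replicate block gave 35 higher and 23 lower members and 4546 genes called, ending the calls of SLC19A1, SLC19A3, SLC22A3, SLC30A1, SLC39A7, SLC39A11, SLC41A1, SLC45A3 and SLCO4A1. With the block 36.4% of the zinc, copper, magnesium and heme carriers were called, against 38.5% of all genes. Equal library totals ended the calls of SLC19A1, SLC19A3, SLC29A1, SLC29A2, SLC2A13, SLC30A1, SLC39A7, SLC39A11, SLC41A1, SLC45A3 and SLC6A8, a pseudocount of 0.1 that of SLC39A11 and median-of-ratios factors (chosen after the data were seen) that of SLC22A3. Scalings moved the median of all genes by under 0.1. The 3 planned count tests (edgeR with TMM, DESeq2, and edgeR with DESeq2 size factors) were not run, since reads could not be recovered in every column. Depth is unknown, so values under 1 cannot be given a counting interval.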
